A study of Homo sapiens with 18 samples.

Results

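The interleukin-1 family of ligands and receptors was followed through RNA sequencing of 3 human cholangiocarcinoma lines in which RNF213, a large ubiquitin ligase of the cytosol, had been targeted by a short hairpin RNA. The genes were chosen by name: the ligands IL33, IL1A, IL1B and IL18, the receptor antagonist IL1RN, and the receptor genes IL1R1, IL1R2, IL1RAP, IL18R1 and IL1RL1. All 10 were among the 36601 gene IDs counted in every library. Cholangiocarcinoma is the carcinoma of bile duct cells. Per the labels, HuCCT1 is of bile duct origin, YSCCC of liver and KKU-100 of biliary tract. Each line was made stable, by third-generation lentivirus, with a control hairpin (shControl, genotype WT in the labels) or with the RNF213 hairpin numbered 2 (shRNF213), and each of the 6 groups held 3 biological replicates, 18 libraries of polyadenylated RNA in all. All groups thus carry a lentiviral hairpin. With 1 hairpin against RNF213, an effect of the loss of RNF213 and another effect of that hairpin cannot be told apart. KKU-100 was kept in Ham's F12 and the other lines in RPMI-1640, so line and medium cannot be told apart either.

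Interleukin-1 cytokines are early signals of tissue damage and infection. IL-1 alpha and IL-33 are kept inside epithelial cells, partly in the nucleus, and are released when cells are injured, whereas IL-1 beta and IL-18 are made as precursors that caspase-1 cuts in inflammasomes. IL-1 alpha and IL-1 beta bind IL1R1, which recruits the accessory chain IL1RAP and signals through MYD88 and IRAK kinases to NF-kappaB; IL1RN occupies IL1R1 without signalling, and IL1R2 is a decoy. IL-33 binds IL1RL1 (ST2), also with IL1RAP, and IL-18 binds IL18R1. In the biliary tree, IL-33 is known as a signal of bile duct injury.

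Library totals ran from 21056732 to 25502097 counts, and mitochondrial transcripts took 1.61% to 2.76% of them. RNF213 itself, the targeted gene, had the lower level with the RNF213 hairpin in 9 of 9 pairs of libraries that share a line and replicate number. In CPM, that is counts divided by TMM-normalised library size, it stood at 394, 1280 and 433 in HuCCT1 shControl replicates 1, 2 and 3 and 277, 431 and 286 in shRNF213. In YSCCC it was at 427, 378 and 523 against 151, 233 and 214, and in KKU-100 1250, 1010 and 1210 against 575, 649 and 559. The arms did not overlap in YSCCC and KKU-100, and they overlapped in HuCCT1, where shRNF213 replicate 2 was above shControl replicate 1. By edgeR's quasi-likelihood test with the replicate number as a pair, the log2 fold change was -1.16 (SE 0.13, Benjamini-Hochberg adjusted p = 0.000307) in YSCCC, -0.97 (SE 0.15, adjusted p = 0.0462) in KKU-100 and -0.89 (SE 0.18, adjusted p = 0.136) in HuCCT1. The HuCCT1 value passed the 0.05 threshold when any 1 pair was left out, and the KKU-100 value missed it without replicate 1 (adjusted p = 0.0663) or 3 (0.251). Without the pairing, the value missed the threshold in YSCCC (-1.15, adjusted p = 0.883) and KKU-100 (-0.98, adjusted p = 0.362).

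HuCCT1 and YSCCC both expressed the biliary and epithelial markers KRT7, KRT8, KRT18, KRT19, EPCAM, CDH1, SOX9 and CLDN4. KKU-100 had KRT7, KRT8, KRT18 and SOX9, but keratin 19 was at 0 to 4 counts per library, the adhesion protein EPCAM at 0 to 3 and E-cadherin (CDH1) at 15 to 102. KRT19 was at 388 to 2460 CPM in the other lines, so the markers of KKU-100 go in part against its label. Of the immune markers, CD3E and TPSAB1 were at 0 counts in all KKU-100 libraries, PTPRC stayed at 2 counts or fewer and MS4A1 at 1 or fewer, while CD68, which many carcinoma lines express, stood at 50.5 to 116 CPM there. Other libraries stand apart too: in replicate 2 of HuCCT1, 20 interferon-stimulated genes summed to 8835 CPM (shControl) and 8614 CPM (shRNF213), against 737.1 to 1361 CPM in replicates 1 and 3. Replicate 3 of YSCCC stands apart in both arms, with KRT19 at 388 and 437 CPM there against 1010 to 1150 CPM in replicates 1 and 2. Its deviations from the group means correlated at -0.819 to -0.698 with those of replicates 1 and 2 in the other arm. Since the deviations of a group cancel out, negative values between different replicate numbers are partly forced. Replicates 1 and 2 correlated at 0.516 and 0.657 across the arms.

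The stretches of 250 bases before the start sites of IL33 and IL1A, which rose with the hairpin in KKU-100, and of IL1B are shown first, because they are the DNA nearest to the transcripts described below (RefSeq, build GRCh38.p14; 9 of the 10 genes had an entry). They lie at chr9:6215557-6215806 on the plus strand (IL33), chr2:112784494-112784743 on the minus strand (IL1A) and chr2:112836780-112837029 on the minus strand (IL1B), each read 5′ to 3′ toward the gene. Capitals mark matches to the AP-1 motif TGANTCA.
IL33: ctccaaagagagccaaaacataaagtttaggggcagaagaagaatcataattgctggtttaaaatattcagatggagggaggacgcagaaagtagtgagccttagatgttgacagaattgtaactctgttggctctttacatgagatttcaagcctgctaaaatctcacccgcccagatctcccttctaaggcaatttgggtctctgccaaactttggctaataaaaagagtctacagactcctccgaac
IL1A: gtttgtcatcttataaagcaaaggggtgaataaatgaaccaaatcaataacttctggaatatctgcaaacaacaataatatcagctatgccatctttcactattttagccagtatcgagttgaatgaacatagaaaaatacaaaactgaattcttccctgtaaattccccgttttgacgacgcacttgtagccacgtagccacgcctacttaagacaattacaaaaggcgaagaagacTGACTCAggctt
IL1B: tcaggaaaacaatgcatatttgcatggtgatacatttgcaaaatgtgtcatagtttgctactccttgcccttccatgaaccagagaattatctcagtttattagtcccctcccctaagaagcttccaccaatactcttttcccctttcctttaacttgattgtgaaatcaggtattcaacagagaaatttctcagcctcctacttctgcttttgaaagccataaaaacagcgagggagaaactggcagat
4 motifs were searched on both strands. The AP-1 motif was present in 6.57% of 35114 windows of this length across the genome, the STAT motif TTCNNNGAA in 6.57%, TATAAA in 10.7% and the NF-kappaB consensus in 5.21%. IL33 and IL1A each have 2 RefSeq start sites, and the window shown is that of the site nearest to the gene start in the deposited annotation. The IL1A window shown held an AP-1 match that begins 12 bases before the start site and a TATAAA match at 239 bases before it. The IL1B window held a STAT match at 180 bases before the start, and the IL33 window held none of the 4. The window of the other IL1A start site overlaps the one shown. It held 2 AP-1 matches, at 105 and 55 bases before that site, and no other match. The one at 105 bases is the same stretch of DNA as the match 12 bases before the first site. The one at 55 bases lies downstream of the first site. The other IL33 window held none of the 4 motifs. AP-1 matches were not limited to IL1A: a window of IL1RN held one at 223 bases before its start and a window of IL1RL1 at 191 bases. TATAAA matches were also found in windows of IL1RN, IL1R1, IL1R2 and IL1RL1, and a STAT match in one of IL1R1.

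Apart from the hairpin, the 3 lines carried different sets of ligands and receptors, as the plot of TPM by library shows. Levels of different genes are compared in the deposited TPM, which takes transcript length into account. HuCCT1 shControl cells had IL18 as the most abundant of the 10 transcripts, at 502 ± 58.3 TPM (SD, n = 3), and no read of IL33. YSCCC had little of any ligand but kept IL1R1, at 94.8 ± 35.9 TPM (SD, n = 3), the most abundant in that line. KKU-100 was the one line of the 3 with more than a trace of IL33, and it held it together with IL1RL1, the IL-33 receptor, and nearly without IL1RN and IL1R2.

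Within a line, neighbours in the order of TPM often overlapped between replicates. In HuCCT1 shControl, IL18 was followed by IL1RN, IL1A, IL1B and IL1RAP, each overlapping the next, then without overlap by IL1R2, and last by IL1RL1, IL18R1 and IL1R1. In YSCCC, IL1R1 led in every library, IL1RN, IL1RAP and IL18 overlapped one another, and the other 6 stayed under 5 TPM. In KKU-100, IL18 led and was followed by IL1RAP, IL1A, IL1RL1, IL1R1 and IL18R1, each overlapping the next, then by IL1B and IL33, which overlapped, and without overlap by IL1RN and IL1R2.

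**Figure D1:**
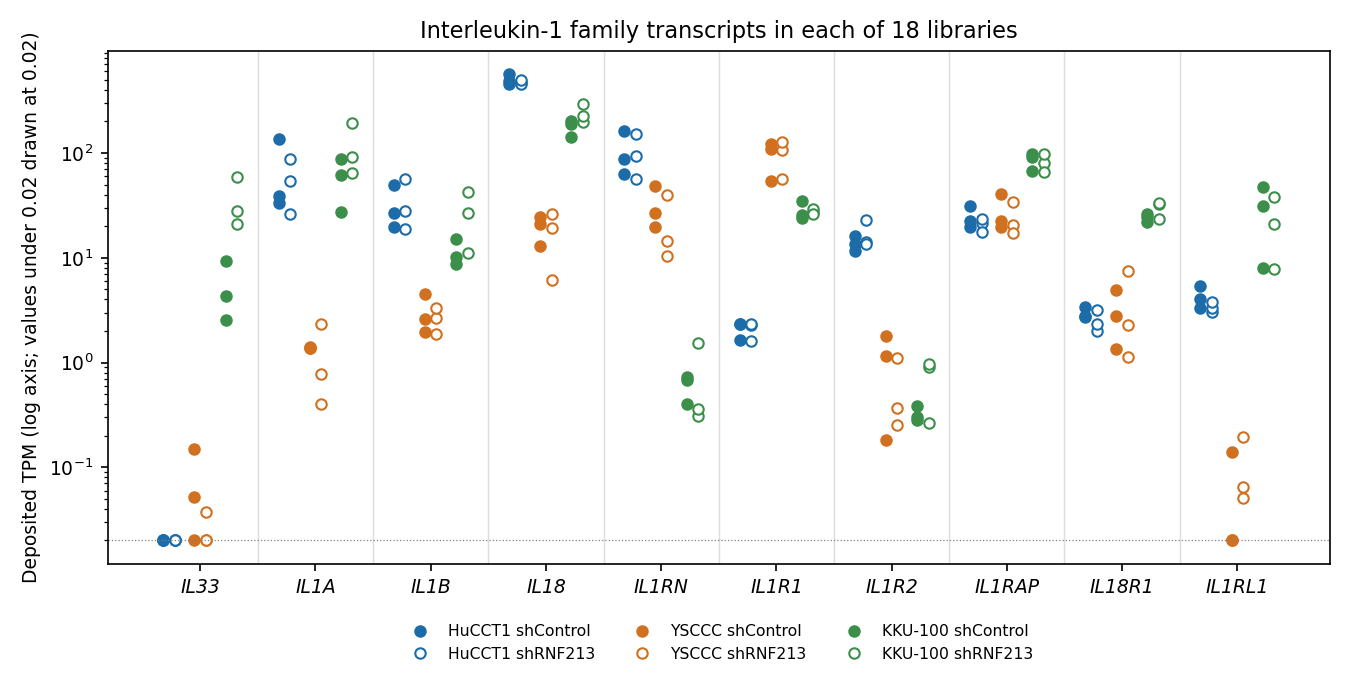
Deposited TPM (log axis) of the 10 genes in the 18 libraries, 1 point per library, with filled points for shControl and open points for shRNF213; values under 0.02 are drawn at 0.02. IL33 is above 2 TPM in KKU-100 libraries alone, IL1R1 is lowest in HuCCT1, and IL1RN and IL1R2 are near the bottom in KKU-100.

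Among the ligands, IL33 (ENSG00000137033, chromosome 9, 6215786 to 6257983, plus strand) had 0 counts in the 6 HuCCT1 libraries, which allows 3 counts per library or 0.129 CPM. It had 0, 4 and 2 counts in YSCCC shControl replicates 1, 2 and 3, and 1, 0 and 0 in shRNF213. In KKU-100 shControl it had 57, 251 and 110 counts, or 2.92, 11.3 and 5.23 CPM. Their mean of 6.5 CPM was at least 50.3-fold above the HuCCT1 limit of 3 counts per library, and at least 31.6-fold without replicate 2. Every KKU-100 library was thus above every library of the other lines. IL1A (ENSG00000115008, chromosome 2, 112773915 to 112784590, minus strand) stood at 137, 38.8 and 33.2 TPM in HuCCT1 shControl, at 1.37, 1.37 and 1.42 TPM in YSCCC and at 88.2, 62.3 and 27.6 TPM in KKU-100. HuCCT1 and KKU-100 overlapped and YSCCC lay far below both. IL1B (ENSG00000125538, chromosome 2, 112829751 to 112836816, minus strand) followed the order HuCCT1 (19.5 to 49.9 TPM), KKU-100 (8.77 to 15.1) and YSCCC (1.97 to 4.5), with no overlap between lines.

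IL18 (ENSG00000150782, chromosome 11, 112143253 to 112164096, minus strand) was the highest of the 10 in both HuCCT1 (456 to 567 TPM) and KKU-100 (142 to 201 TPM), above the next gene in every shControl library. In YSCCC it ran from 12.9 to 24.6 TPM and overlapped with IL1RN and IL1RAP. IL1RN (ENSG00000136689, chromosome 2, 113107214 to 113134016, plus strand), the antagonist, stood at 88.0, 163 and 62.6 TPM in HuCCT1 shControl, 27.0, 19.7 and 47.9 TPM in YSCCC and 0.687, 0.403 and 0.731 TPM in KKU-100. The lines did not overlap. The HuCCT1 maximum was in replicate 2, the replicate with high interferon-stimulated genes, in both arms (148 and 149 CPM against 48.9 to 79.7 CPM in the others); the part of the interferon genes in it was not tested. The sum of the IL1A and IL1B levels over that of IL1RN, in TPM, was 0.402 to 2.12 in HuCCT1 shControl, 0.0708 to 0.298 in YSCCC and 51.7 to 192 in KKU-100.

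Of the receptors, IL1R1 (ENSG00000115594, chromosome 2, 102064544 to 102179874, plus strand) ran from 1.65 to 2.35 TPM in HuCCT1 shControl, from 24.2 to 34.9 TPM in KKU-100 and from 53.9 to 121 TPM in YSCCC. The decoy IL1R2 (ENSG00000115590, chromosome 2, 101991960 to 102028544, plus strand) was instead highest in HuCCT1, with 11.7 to 16.0 TPM. It ran from 0.182 to 1.81 TPM in YSCCC and from 0.282 to 0.384 TPM in KKU-100, which overlapped. IL1R1 over IL1R2 in TPM was therefore 0.141 to 0.170 in HuCCT1 shControl, 60.2 to 296 in YSCCC and 63.0 to 115 in KKU-100. Of the 3 lines, HuCCT1 was the one with more decoy than signalling receptor transcript. The shared accessory chain IL1RAP (ENSG00000196083, chromosome 3, 190514051 to 190659750, plus strand) was present in each line, at 19.8 to 30.9 TPM in HuCCT1, 19.5 to 41.0 in YSCCC and 66.8 to 98.2 in KKU-100.

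IL18R1 (ENSG00000115604, chromosome 2, 102311529 to 102398775) and IL1RL1 (ENSG00000115602, chromosome 2, 102311502 to 102352037) lie on the plus strand and share 95 exonic bases, 2.2% and 1.7% of their exons, so reads there could have gone to either. IL18R1 ran from 22.0 to 26.1 TPM in KKU-100 shControl, above HuCCT1 (2.70 to 3.38) and YSCCC (1.35 to 4.89), which overlapped. IL1RL1 stood at 47.8, 31.0 and 8.03 TPM in KKU-100 shControl replicates 1, 2 and 3, at 3.35 to 5.39 TPM in HuCCT1 and at 0, 3 and 6 counts in YSCCC. KKU-100 was the highest line, but its replicate 3 was low in both arms, with 13.3 and 13.8 CPM against 36.9 to 83.6 CPM in the other replicates.

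The 9 shControl libraries were compared between lines by edgeR's quasi-likelihood test, adjusted over 18010 genes. Most genes differ between such lines: 57.4% passed for KKU-100 against HuCCT1, and 9 of the 10 members did, with 5 higher in KKU-100 and 4 lower. Higher were IL1R1 (log2 fold change 3.52, SE 0.33), IL18R1 (3.09, SE 0.39), IL1RL1 (2.81, SE 0.59), IL1RAP (1.91, SE 0.30) and IL33, whose fold is given above as a bound. Lower were IL1RN (-7.28, SE 0.53), IL1R2 (-5.40, SE 0.65), IL1B (-1.52, SE 0.45) and IL18 (-1.51, SE 0.26), and IL1A did not pass (-0.29, SE 0.53). The IL1B call was lost without HuCCT1 replicate 1 (adjusted p = 0.0726) or KKU-100 replicate 1 (0.0501).

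Against YSCCC, 9 of 10 members differed in KKU-100, beside 60.7% of all genes, 7 of them higher. The gaps were widest for IL1RL1 (log2 fold change 8.74, SE 0.87), IL33 (6.33, SE 0.84), both resting on few YSCCC counts, and IL1A (5.61, SE 0.67). IL1RN (-5.29, SE 0.50) and IL1R1 (-1.46, SE 0.30) were lower in KKU-100. IL1R2 did not pass (-1.39, adjusted p = 0.0945 by edgeR); it passed by DESeq2 (adjusted p = 0.0494) and without YSCCC replicate 3 (0.00319). Between YSCCC and HuCCT1, 7 of 10 passed beside 58.4% of all genes. IL1R1 was higher in YSCCC by 4.98 on the log2 scale (SE 0.35), and IL1RL1, IL1A, IL18, IL1R2, IL1B and IL1RN were lower, by log2 fold changes from -5.93 to -1.99. IL18R1 (-0.16, SE 0.37) and IL1RAP (-0.10, SE 0.29) did not pass, and neither did IL33, which both lines have at 4 counts or fewer. With more than 1 in 2 genes differing between any 2 lines, such counts are a description of the lines rather than of the family.

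With the RNF213 hairpin, IL33 and IL1A rose in KKU-100 and IL1RN fell in YSCCC; no member passed the test in HuCCT1. IL33 in KKU-100 was 26.9, 68.6 and 35.2 CPM in shRNF213 replicates 1, 2 and 3 against 2.92, 11.3 and 5.23 CPM in shControl. Every shRNF213 library lay above every shControl library, and replicate 2 was the highest of its arm in both. The ratios within pairs were 9.20, 6.05 and 6.72, and the fitted log2 fold change was 2.81 (SE 0.16, adjusted p = 0.00153 by edgeR's quasi-likelihood test over 14915 genes). In TPM, IL33 moved from rank 8 to rank 4 among the 10, from 5.39 ± 3.47 to 36.1 ± 20.2 (SD, n = 3). Each fit without 1 pair kept the call, with log2 fold changes from 2.67 to 2.92; without the pairing the value was 2.74 and the adjusted p = 0.362.

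IL1A in KKU-100 was 89.6, 62.7 and 27.0 CPM in shControl and 205, 89.7 and 66.9 CPM in shRNF213. Each shRNF213 library was above its partner, while the arms overlapped, since replicate 3 was low and replicate 1 high in both. The log2 fold change was 0.99 (SE 0.15, adjusted p = 0.0462). That call is close to the threshold: it was lost without replicate 1 (adjusted p = 0.0619), without replicate 3 (0.222) and without the pairing (0.79). IL1B was 5.90, 10.6 and 6.94 CPM in shControl and 19.8, 27.8 and 7.90 CPM in shRNF213, higher in 3 of 3 pairs but by little in replicate 3. Its log2 fold change of 1.11 (SE 0.29) did not pass by edgeR (adjusted p = 0.150) and passed by DESeq2 (0.00736). IL18 was 107, 100 and 75.6 CPM in shControl and 162, 102 and 128 CPM in shRNF213, with almost no gap in replicate 2. Its log2 fold change was 0.45 (SE 0.14, adjusted p = 0.206), and 0.64 without replicate 2 (adjusted p = 0.0440). All 4 ligands were thus higher in 3 of 3 pairs, with 2 past the threshold, and the arms overlapped for all but IL33. The receptor IL18R1 was also higher in 3 of 3 pairs. The share of all genes with that direction was not counted.

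**Figure D2:**
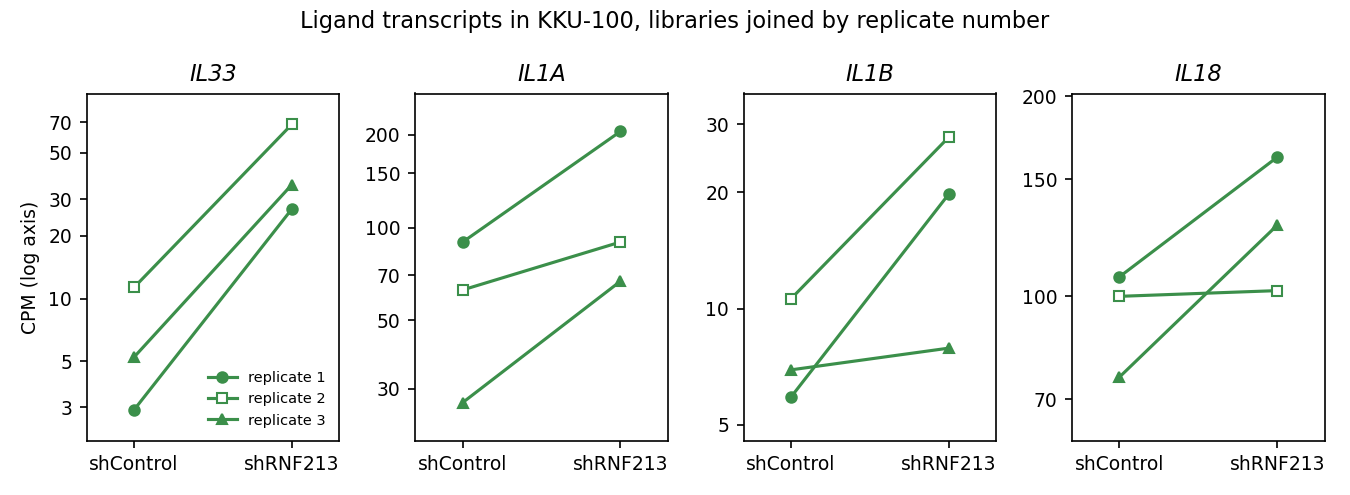
CPM (log axis) of the 4 ligand transcripts in the 6 KKU-100 libraries, with lines joining the shControl and shRNF213 libraries of each replicate number. All lines for IL33 rise steeply, from 2.92 to 26.9 in replicate 1; the IL1B line of replicate 3 and the IL18 line of replicate 2 are nearly flat.

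In all, 2 of the 9 members tested in KKU-100 passed, both higher, where 0.443% of all genes passed and 0.302% were higher. The receptors of KKU-100 stayed off the threshold. IL18R1 was 41.3, 33.3 and 38.4 CPM in shControl and 56.2, 35.5 and 54.6 CPM in shRNF213, higher in 3 of 3 pairs with overlapping arms (log2 fold change 0.33, SE 0.12, adjusted p = 0.248). The IL-33 receptor IL1RL1 was 83.6, 54.2 and 13.3 CPM against 36.9, 64.0 and 13.8 CPM, lower in 1 pair and higher in 2 (-0.32, SE 0.26, adjusted p = 0.595). The spread between its replicates was wider than any gap between arms. IL1R1 had a log2 fold change of 0.00 (SE 0.12), IL1RAP of -0.10 (SE 0.17) and IL1RN, at 7 to 21 counts per library, of -0.16 (SE 0.43). IL1R2, at 4 to 10 counts, did not pass the filter on low counts.

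Markers of other cell types that can make IL-33 were also summed in KKU-100. IL33 itself was at 2.92 to 11.3 CPM in shControl and 26.9 to 68.6 CPM in shRNF213 there. The 5 endothelial markers summed to 2.309, 3.026 and 5.944 CPM in shControl replicates 1, 2 and 3 and 4.307, 4.346 and 6.468 CPM in shRNF213, higher in each pair, as IL33 was. The 7 fibroblast markers summed to 7.234 to 16.17 CPM and 12.72 to 41.76 CPM. The fibroblast sum was higher in shRNF213 in replicates 1 and 3 and lower in replicate 2, where IL33 was also higher. The part of either list in the result was not tested. The 20 interferon-stimulated genes summed to 11140 to 15750 CPM in shControl and 9147 to 11510 CPM in shRNF213, lower in each pair. IFIT2 (-1.41, adjusted p = 0.0225) and RSAD2 (-1.24, adjusted p = 0.0248), which encode antiviral effectors, fell by the same edgeR test, 2 of the 20, where 0.443% of all genes passed; 10 had an unadjusted p under 0.05 and DESeq2 called 6. Both calls were lost without replicate 3 (adjusted p = 0.112 and 0.0784). Over the 20 genes the median log2 fold change was -0.31, beside 0.00 over all genes. In YSCCC, 2 of 20 rose, near the 8.25% of all genes called there: IFI44L (0.93, adjusted p = 0.0257) and IFI44 (0.63, adjusted p = 0.0080), the former losing its call whichever pair was left out and the latter without replicate 1. In HuCCT1, 0 of 19 passed by edgeR, with 1 at an unadjusted p under 0.05 and 1 call by DESeq2. Over all 18 libraries, the most abundant of the list were ISG15 and IFI6, with means of 1460 and 1090 TPM. Whether the interferon genes have a part in the ligand values was not tested.

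In YSCCC, IL1RN fell. It was 20.8, 15.0 and 33.6 CPM in shControl replicates 1, 2 and 3 and 11.4, 7.53 and 27.3 CPM in shRNF213, lower in 3 of 3 pairs while the arms overlapped. Replicate 3 was the highest in both arms and had the narrowest gap. The log2 fold change was -0.70 (SE 0.15, adjusted p = 0.0109 over 16932 genes), 1 of the 8 members tested, where 8.25% of all genes passed and 4.56% were lower. The share of members is near that background. The IL1RN value missed the threshold without replicate 1 (adjusted p = 0.146), without replicate 2 (0.0803) and without the pairing (0.999). Markers of cell types moved in YSCCC as well, by the same edgeR test. The 5 endothelial markers summed to 76.76, 60.2 and 14.96 CPM in shControl and 86.01, 96.99 and 28.78 CPM in shRNF213, higher in each pair, and PECAM1 (1.12, adjusted p = 0.0138) and CDH5 (0.58, adjusted p = 0.0207) rose. The hepatocyte marker SERPINA1 rose too (0.99, adjusted p = 0.00277). The fibroblast collagens COL3A1 (-1.17, adjusted p = 0.00127) and COL1A1 (-0.61, adjusted p = 0.0298), the macrophage receptor CSF1R (-1.12, adjusted p = 0.00358) and E-cadherin (CDH1, -0.57, adjusted p = 0.00750) fell. The fibroblast sum, from 64.4 to 191.1 CPM in shControl and 40.3 to 250.9 CPM in shRNF213, was nevertheless higher in replicates 1 and 2. Of the tested markers, 2 of 3 endothelial, 2 of 4 fibroblast and 1 of 1 hepatocyte genes were called, beside 8.25% of all genes. Among immune markers 1 of 6 was called, while 4 of the 6 were positive (median log2 fold change 0.16). Among epithelial markers 1 of 8 was called (median -0.07). COL3A1, CSF1R and SERPINA1 kept their calls without any 1 pair, CDH1 and PECAM1 lost theirs without replicate 1 or 2, CDH5 without replicate 2 and COL1A1 without any of the 3. The part of these markers in the IL1RN result was not tested.

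The other YSCCC members gave no call. The ligands IL1A (-0.36, SE 0.40), IL1B (-0.18, SE 0.35) and IL18 (-0.28, SE 0.20) each turned sign when 1 pair was left out. IL18 was 12.1, 10.6 and 5.68 CPM in shControl and 13.2, 9.99 and 2.73 CPM in shRNF213, lowest in replicate 3 of both arms. IL1R1, the most abundant member there, was 175, 196 and 86.8 CPM against 179, 202 and 90.4 CPM. The replicates of IL1R1 differed by more than the arms, whose log2 difference was 0.04 (SE 0.09). IL1RAP was lower in 3 of 3 pairs by a small step (-0.21, SE 0.10, adjusted p = 0.245), IL1R2 fitted at -0.93 (SE 0.45, adjusted p = 0.238) on 3 to 25 counts per library, and IL18R1 at 0.12 (SE 0.22). IL33 and IL1RL1 did not pass the filter on low counts.

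In HuCCT1, 0 of the 9 members tested passed, where 0.140% of 15747 genes did. By edgeR 0 of them had an unadjusted p under 0.05, and DESeq2 called 0. IL1A was 143, 43.1 and 34.0 CPM in shControl and 92.3, 63.5 and 27.6 CPM in shRNF213, with replicate 1 high in both arms and the direction split over the pairs (-0.14, SE 0.19). Without replicate 2, the interferon-high pair, it was lower, at -0.49 with an adjusted p = 0.0110. IL18 was 302, 256 and 249 CPM in shControl and 256, 275 and 270 CPM in shRNF213 (-0.01, SE 0.10), and IL1RN 73.3, 148 and 53.2 against 79.7, 149 and 48.9 CPM (0.00, SE 0.08). For both, the gap between arms was smaller than that between replicates. The receptor values lay between -0.25 (IL1RL1, SE 0.18) and 0.35 (IL1R2, SE 0.19), and IL1B was at 0.12 (SE 0.10).

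**Figure D3:**
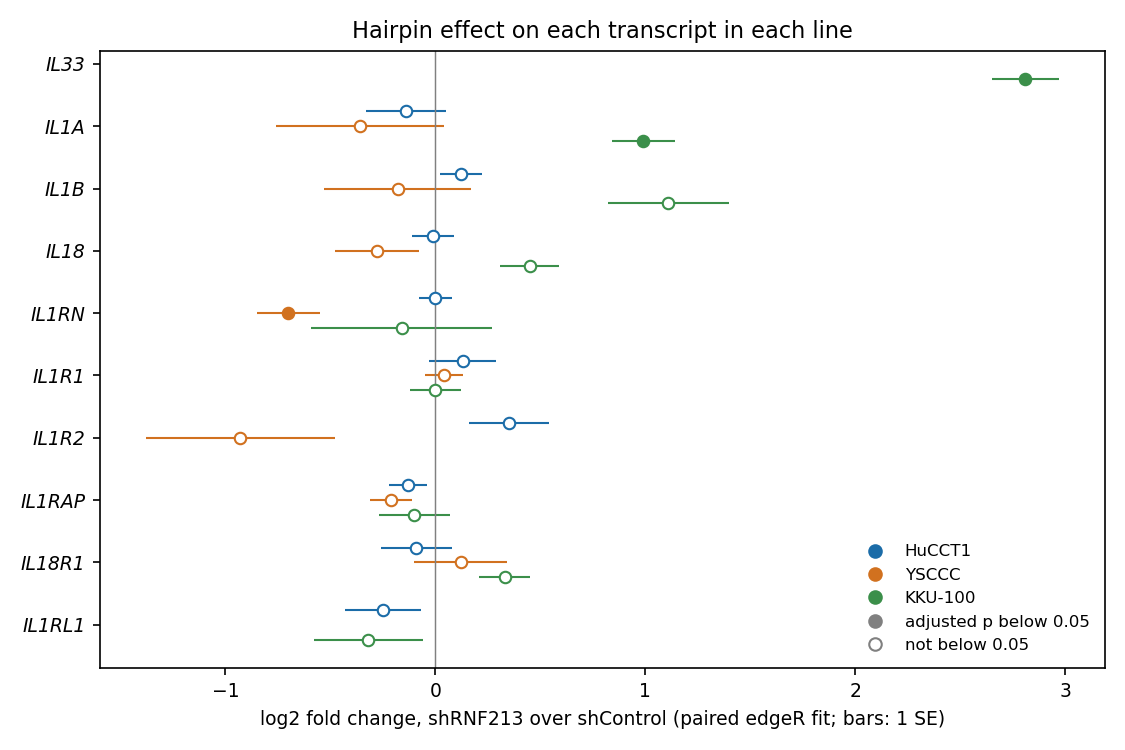
Log2 fold change of each member, shRNF213 over shControl, in the paired fit of each line, with bars of 1 SE; filled points have an adjusted p below 0.05, and members left out by the filter have no point. IL33 (2.81) and IL1A (0.99) of KKU-100 and IL1RN (-0.70) of YSCCC are filled.

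Whether the hairpin acted differently between lines was tested on all 18 libraries at once. No member passed for the mean of the 3 effects (0 of 10, beside 2.90% of 19143 genes, with 0 at an unadjusted p under 0.05 by edgeR and 0 calls by DESeq2). For KKU-100 minus HuCCT1, 0 of 10 passed beside 0.235% of genes, and 2 had an unadjusted p under 0.05. These were IL1A (difference 1.12, SE 0.33, adjusted p = 0.177) and IL1B (1.01, SE 0.38, adjusted p = 0.297). For KKU-100 minus YSCCC, 0 of 10 passed beside 2.63%, and 4 had an unadjusted p under 0.05: IL33, IL1A (1.26, SE 0.50, adjusted p = 0.190), IL1B (1.32, SE 0.47, adjusted p = 0.150) and IL18 (0.71, SE 0.25, adjusted p = 0.151). For YSCCC minus HuCCT1, 0 of 10 passed beside 0.0470%, and IL1RN (-0.70, SE 0.19, adjusted p = 0.245) and IL1R2 (-1.28, SE 0.51, adjusted p = 0.472) had an unadjusted p under 0.05. DESeq2 called 0 members in each of these 3 comparisons. IL33 is included in these counts but has no usable value here, since HuCCT1 has no count of it and YSCCC 4 or fewer. It could not have passed for the mean or for a difference from HuCCT1, so those counts of 0 say nothing about IL33. The calls of 1 line are thus not shown to differ from the other lines.

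The machinery around these genes was looked at through further lists. Of 12 other ligands, receptors and binding proteins of the family, 6, 6 and 3 could be tested in HuCCT1, YSCCC and KKU-100. The most abundant were SIGIRR, a negative regulator of the family, and IL18BP, the secreted IL-18 inhibitor, with means of 75.0 and 8.07 TPM over the 18 libraries. The 1 call was the IL-36 receptor IL1RL2 in YSCCC (-1.27, SE 0.31, adjusted p = 0.0244 by edgeR), on 7 to 43 counts per library, and DESeq2 did not make it (0.161). By edgeR it was also lost without replicate 1 (adjusted p = 0.128) or 2 (0.105). That is 1 of 6 tested, beside 8.25% of all genes called in YSCCC. By edgeR, 4 of the 6 had an unadjusted p under 0.05. IL37, an anti-inflammatory member, had 80 to 317 counts in HuCCT1 libraries and at most 4 in the other lines, and IL18RAP, the second chain of the IL-18 receptor, had 10 to 67 counts in KKU-100 and at most 7 elsewhere. Those 2 genes are named for their levels, after these were seen.

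Of 18 genes of precursor processing and release, 12 differed between KKU-100 and HuCCT1 shControl libraries, 7 between KKU-100 and YSCCC and 11 between YSCCC and HuCCT1, beside 57.4%, 60.7% and 58.4% of all genes. PYCARD, the inflammasome adaptor, was at 9.06 to 15.9 CPM in HuCCT1, 1 to 5 counts per library in YSCCC and 0 to 1 in KKU-100. NLRP3, an inflammasome sensor, was at 17.4 to 28.9 CPM in HuCCT1 and at 0.611 CPM or less in the others. KKU-100 thus held IL18 and IL1B transcripts beside CASP1 at 48.5 to 68.2 CPM and almost no PYCARD (these 3 genes were also named after their levels were seen). Of the 12 genes that differed from HuCCT1, 8 were lower in KKU-100 and 4 higher. Higher were MEFV (log2 fold change 7.37, SE 0.87), NLRC4 (1.23, SE 0.39), CASP1 (1.23, SE 0.37) and NINJ1 (1.11, SE 0.23). The most abundant of the 18 genes were the calpain subunits CAPNS1 and CAPN1, a protease that cuts the IL-1 alpha precursor. Their means over all 18 libraries were 560 and 321 TPM.

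With the hairpin, 0 of 16 tested genes of processing and release passed in HuCCT1 by edgeR (1 at an unadjusted p under 0.05, 0 by DESeq2), and 0 of 16 in KKU-100 (3, and 0 by DESeq2). In YSCCC, 2 rose and 1 fell of 16, beside 8.25% of all genes called there. The inflammatory caspases CASP4 (0.31, SE 0.09, adjusted p = 0.0466) and CASP5 (1.03, SE 0.22, adjusted p = 0.0114) rose, and the pore-forming GSDME fell (-1.0, SE 0.20, adjusted p = 0.00824). CASP5 counts came mostly from replicate 3, at 19.0 CPM in shControl and 40.9 in shRNF213 against 0.228 to 0.567 CPM in replicates 1 and 2; without replicate 3 it did not pass the filter on low counts. CASP4 lost its call whichever pair was left out, and GSDME without replicate 1 or 2. The list's median log2 fold change was 0.14 in YSCCC and 0.14 in KKU-100, beside 0.01 and 0.00 over all genes tested.

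Of 19 genes that carry the receptor signal, IRAK1 and UBE2V1 were the most abundant (means of 282 and 220 TPM over all 18 libraries). No tested gene passed in HuCCT1 (0 of 18 by edgeR, 1 at an unadjusted p under 0.05, 0 by DESeq2) or KKU-100 (0 of 18, 2 at an unadjusted p under 0.05, 0 by DESeq2). In YSCCC, 2 rose and 2 fell of 19, beside 8.25% of all genes called, with a list median of 0.03. The ubiquitin ligase PELI2 (2.02, SE 0.37, adjusted p = 0.00522, 2 to 83 counts per library) and the TAK1 adaptor TAB2 (0.51, SE 0.11, adjusted p = 0.0109) rose. The kinase IRAK2 (-0.56, SE 0.16, adjusted p = 0.0459) and the adaptor TAB3 (-0.34, SE 0.09, adjusted p = 0.0311) fell. PELI2 kept its call without any 1 pair, and the other 3 lost theirs without replicate 1 or replicate 2.

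Of genes known to respond to IL-1, 0 of 22 tested passed in KKU-100 by edgeR, with a median log2 fold change of 0.01 beside 0.00 over all genes. In all, 9 of the 22 had an unadjusted p under 0.05, and DESeq2 called 3. CXCL8, the neutrophil chemokine, was at 541 to 813 CPM in KKU-100 shControl and 462 to 1120 CPM in shRNF213 (0.04, SE 0.15), and IL6 fitted at 0.16 (SE 0.12); both were named after their values were seen. Over all 18 libraries, not KKU-100 alone, the most abundant of the list were LCN2 and IER3, with means of 1130 and 615 TPM. TNFAIP3, an inhibitor of NF-kappaB that IL-1 induces, had a log2 fold change of -0.72 (SE 0.14, adjusted p = 0.0759). In HuCCT1, 1 of 24 passed by edgeR, beside 0.140% of all genes, and 7 had an unadjusted p under 0.05. DESeq2 called 3. Of the 24, 18 were positive, with a median log2 fold change of 0.12. The gene called by edgeR, the chemokine CXCL5, rose by 1.02 (SE 0.13, adjusted p = 0.0272). It stood at 102 to 216 CPM in shControl and 228 to 413 CPM in shRNF213, and kept its call without any 1 pair. In YSCCC, 2 of 22 rose and 1 fell, beside 8.25% of all genes called. MMP3 (2.26, SE 0.37, adjusted p = 0.00278, 5 to 51 counts per library) and LCN2, an iron-sequestering acute-phase protein (0.44, SE 0.09, adjusted p = 0.00990), rose and TNFAIP3 fell (-0.90, SE 0.11, adjusted p = 0.000521). TNFAIP3 kept its call without any 1 pair, while LCN2 lost it without replicate 1 or 2 and MMP3 without replicate 1.

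**Figure D4:**
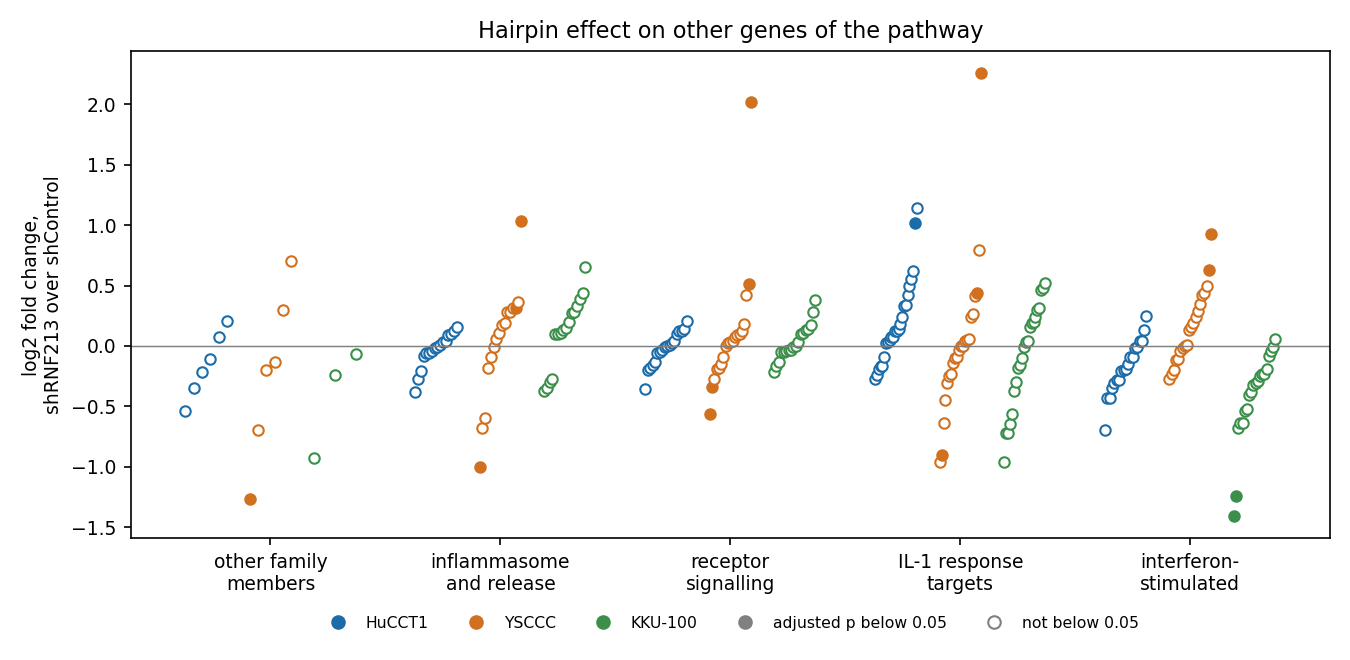
Log2 fold change, shRNF213 over shControl, of each tested gene of 5 lists in the paired fit of each line, ordered by value within a list; filled points have an adjusted p below 0.05. Most filled points are in YSCCC, PELI2 (2.02) and MMP3 (2.26) are the highest, and the IL-1 response targets of KKU-100 scatter around 0 with no filled point.

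The genes whose pattern over the 18 libraries was most like that of IL33 and IL1A were found by the root mean square difference of log2(CPM + 1), each gene centred on its own mean, among 13576 genes. For IL33 these were RTN1, a reticulon of the endoplasmic reticulum (0.55), the amino acid transporter SLC6A14 (0.63) and the prostaglandin F receptor PTGFR (0.65), where the median gene was at 2.14. All 3 were highest in KKU-100 shRNF213: SLC6A14 had means of 23.7 CPM in shControl and 197 in shRNF213 of that line and at most 1.69 CPM in any other group. Their log2 differences between the arms of KKU-100 were 3.02 (SLC6A14), 2.81 (RTN1) and 1.71 (PTGFR); since these libraries were part of the choice, no test is given. For IL1A the nearest were TGFB1I1 (0.71), IGFBP6 (0.72) and GSPT2 (0.73), where the median gene was at 2.52. Like IL1A, these were low in YSCCC (at most 1.01 CPM on average) and high in both other lines, but their log2 fold changes in KKU-100 were between -0.10 and 0.31.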

How the data were processed

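Polyadenylated RNA of 18 libraries was sequenced (TruSeq, per the labels' protocols). Per the submitters' processing notes, the authors used STAR 2.5.1b, HTSeq 0.6.1p1, StringTie 2.1.6 and DESeq2 1.34.0 with build GRCh38; for the strand used in counting, nothing was given in the sources used here. The deposited values are, per the file headers, raw counts, TPM, FPKM, a coverage signal and counts scaled with DESeq2 (a signal); only the counts were tested, and TPM served to compare genes.

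Counts were fitted with edgeR 4.0.16 (quasi-likelihood F test, two-sided, TMM, filterByExpr with a minimum count of 10, R 4.3.3), per line with the replicate number as a block, in 1 fit of all 18 libraries, and over the 9 shControl libraries. P-values were Benjamini-Hochberg adjusted over all genes tested, with 0.05 as threshold. Deviations of same-numbered libraries from their group means correlated at 0.406 to 0.902 in the 9 pairs, all above the 0.1 set for pairing; some different-numbered libraries passed it too (up to 0.657, in YSCCC). Alternatives were DESeq2 1.42.0, median-of-ratios size factors, no filter, the other pairing and leaving out each pair or library. The script was tested on simulated data. The replicates are labelled biological without further detail. P-values of the paired hairpin fits therefore measure the spread of the differences within pairs of these cultures. P-values of the shControl comparisons measure the spread between cultures of a line. Named genes of the pathway lists were all called genes (at most 4 per list, line and direction) and the 2 with the highest mean TPM. The members, lists and tests were chosen with earlier results of these data known. Results for 1 gene of a marker list are not reported here.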

Additional observations from a re-analysis of the deposited data

How the results depend on the processing

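Median-of-ratios size factors changed no call or direction among the members, RNF213 and the called list genes that were compared singly. No count of called genes moved by more than a factor of 1.5. Without the replicate block, the called genes went from 22 to 0 in HuCCT1 (388 at an unadjusted p under 0.05 by edgeR), from 1397 to 0 in YSCCC (802) and from 66 to 2 in KKU-100, with 0 members called in YSCCC or KKU-100. The mean effect fell from 555 to 28 calls, and the differences KKU-100 minus HuCCT1, KKU-100 minus YSCCC and YSCCC minus HuCCT1 to 0 calls each (621, 1108 and 344 at an unadjusted p under 0.05); IL1A in the last turned to 0.06. With the block added, the line comparisons kept every call of a member.

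DESeq2 called 114 genes in HuCCT1, 420 in KKU-100, 1054 for the mean and 283, 1043 and 154 for the 3 differences in that order. Without the filter on low counts these were 117, 193, 907, 273, 894 and 125, and 2160 in YSCCC; 1 member (IL1A) then passed for KKU-100 minus HuCCT1 and 2 (IL1B among them) for KKU-100 minus YSCCC.

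Leaving out 1 pair gave 18 to 335 calls in HuCCT1 (0 to 1 members), 313 to 1856 in YSCCC (0 to 1) and 9 to 420 in KKU-100 (1 to 3). It gave 226 to 1011 for the mean, and for the differences 4 to 290, 156 to 839 (0 to 1 members) and 0 to 44. Signs that turned on leaving out 1 pair had these ranges. In HuCCT1, IL1A ran from -0.49 to 0.14 and IL18 from -0.07 to 0.11. In YSCCC, IL1A ran from -1.18 to 0.13, IL1B from -0.71 to 0.39, IL18 from -0.53 to 0.03 and IL18R1 from -0.23 to 0.35. In KKU-100, IL1RAP ran from -0.29 to 0.16 and IL1RL1 from -0.64 to 0.16. IL1RN ran there from -0.03 to 0.12 in the 2 fits that could test it, beside -0.16 with all pairs. The mean for IL1A ran from -0.10 to 0.35, IL1RN in KKU-100 minus HuCCT1 from -0.64 to 0.19, and in YSCCC minus HuCCT1 IL1A from -1.04 to 0.31, IL1B from -0.84 to 0.28 and IL18 from -0.49 to 0.03. Between lines, IL1A in KKU-100 against HuCCT1 ran from -0.71 to 0.64, and in YSCCC against HuCCT1 IL1RAP from -0.44 to 0.14, IL18R1 from -0.66 to 0.18 and RNF213 from -0.96 to 0.08. For these the cause was not tested. With 3 pairs per line, small changes may be missed, most of all in members at a few counts per library.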
